A study of Mus musculus with 16 samples.

Results

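Respiratory complex I (NADH:ubiquinone oxidoreductase) is the entry point of electrons from NADH into the mitochondrial respiratory chain. Its peripheral arm in the matrix oxidizes NADH and passes electrons along iron-sulfur clusters to ubiquinone, and its membrane arm pumps protons. Core subunits do the chemistry, accessory subunits surround them and are needed for assembly and stability, and the membrane arm is built around core subunits encoded in mitochondrial DNA. The nuclear subunit genes were taken by symbol, as the Nduf genes of the letters a, b, c, s and v with a number, plus Ndufab1, and assembly factors (Ndufaf) were kept apart. This gave 37 of the 24946 genes in the tables, 7 of them core subunits, and all 37 were expressed well enough to be tested in every comparison. Ndufa4 matched the symbol rule but is now placed in complex IV, so it is given by name and counts are also given without it. The mitochondrially encoded subunits were not analysed here.

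The study compared neural stem cells (NSCs) of the mouse ventricular-subventricular zone (V-SVZ), the germinal niche along the lateral ventricle, between Tsc2 mut/mut and Tsc2 wt/wt cultures. Tsc2 encodes tuberin, a brake on the growth kinase complex mTORC1, which acts on translation and on mitochondrial genes. The pups came from a cross of a tdTomato reporter with Nestin-CreERT2, a tamoxifen-inducible recombinase under the Nestin promoter, with control or conditional Tsc2 (Tsc2tm1.1Mjg) alleles. All pups received tamoxifen and the V-SVZ was dissected 7 days later. The study describes its subcultured NSCs as uniformly reporter-positive and, for the mutant, as having lost Tsc2. The sex, litter or animal behind each culture is not given in the labels or the study's methods. Cells were passaged once and held 15 minutes in cycloheximide, which keeps ribosomes on mRNA. From each of 4 mutant and 4 wild-type cultures, total RNA was sequenced beside RNA from the heavy 3 mL of a 17.5% to 50% sucrose gradient, the polyribosomal RNA, so 16 libraries formed 4 groups of 4. The study counts 4 cultures per genotype for this profiling, and 4 mice per genotype for the gene ontology terms it drew from translational efficiency. P-values measure the spread between these cultures, and which animal each came from is not given.

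Values are normalized reads, that is read counts divided by the authors' normalization factors, separately for total and polyribosomal RNA. Columns summed to 65.6 to 73.7 M in total RNA and 87.4 to 101 M in polyribosomal RNA, and the size of the smallest values put depth near 24.7 to 139 M and 52.0 to 266 M reads. Tsc2 had 5592 to 7076 normalized reads in mutant and 6232 to 7836 in wild-type total RNA, which overlapped (log2 change -0.10 ± 0.10 SE, limma adjusted p = 0.422), and 5956 to 9339 in mutant and 10505 to 13165 in wild-type polyribosomal RNA, where it fell (log2 change -0.49 ± 0.15 SE, limma adjusted p = 0.0389). The conditional allele removes part of the gene, so a count over the whole gene is a weak check of the genotype. The 12 genes that mark NSCs summed to 812430 to 873900 normalized reads in mutant and 753300 to 904110 in wild-type total RNA (2 genes higher, 1 lower). Vim was the largest part of this sum, and Prom1 was low, at 220 to 494. Gfap stood at 22958 to 49320 in mutant and 9309 to 21502 in wild-type cultures, and Fabp7 at 55256 to 110880 and 106280 to 142010. The sum of 10 young neuron genes spanned 19671 to 21654 in mutant and 17231 to 29056 in wild-type cultures (2 higher, 1 lower). Map2 was most of this sum, at 15924 to 17613 in mutant and 14744 to 26411 in wild-type cultures. Without overlap, Stmn2 (264 to 760 against 40.7 to 126) and Gad1 (338 to 808 against 179 to 278) were higher in mutant cultures. Dlx2 was lower (89.6 to 143 against 186 to 249), and the other genes of this list overlapped. Counts in brackets are genes past a limma adjusted p of 0.05 in total RNA, where 19.7% of all genes were higher and 20.7% lower. Some other lists differed by genotype or culture in their sums. The sum of 12 microglial genes spanned 3086 to 21007 in mutant and 2770 to 4671 in wild-type cultures (2 genes higher, 0 lower, near the all-gene share). The mean log2 level of these 12 was highest in mutant cultures 2 and 4. The sum of 10 oligodendrocyte lineage genes spanned 24714 to 35847 in mutant and 13234 to 15808 in wild-type cultures (9 higher, 0 lower). The sum of 7 endothelial and mural genes spanned 2831 to 4697 in mutant and 1328 to 2700 in wild-type cultures (4 higher, 0 lower). Flt1 was most of this sum, at 2323 to 3852 in mutant and 1058 to 2339 in wild-type cultures. Flt1, Cldn5, Pecam1, Kdr and Rgs5 overlapped between genotypes, with Cldn5 at 0 to 4.37, while Cdh5 and Pdgfrb did not overlap. The sum of 7 choroid plexus and ependymal genes spanned 5790 to 8188 in mutant and 4674 to 5870 in wild-type cultures (3 higher, 0 lower). Foxj1 made up most of the choroid and ependymal sum, at 4749 to 5896 in mutant and 4333 to 5597 in wild-type cultures. Ttr stood at 2281 in mutant culture 3. The sum of 20 S phase genes spanned 109760 to 224510 in mutant and 241550 to 295320 in wild-type cultures (20 lower), with the mean log2 level lowest in mutant cultures 1 and 3. The sum of 4 Y-linked genes ran between 6.57 and 4775 in mutant and between 258 and 5802 in wild-type cultures, being lowest in mutant cultures 2, 3 and 4 and in wild-type culture 4. The part of these shifts in the results below was not tested beyond leaving out cultures and the Y-linked covariate. In bulk RNA, fewer cells of a type and less RNA per cell cannot be told apart.

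Complex I subunit mRNAs were slightly lower in mutant total RNA and higher in mutant polyribosomal RNA by their medians, and most rose on polyribosomes relative to their total level. In total RNA the median log2 change of the 37 genes was -0.19 (range -0.55 to 0.07), against 0.01 over all 14967 genes tested, and 33 of 37 changes were below 0. Past the threshold, a limma adjusted p of 0.05, were 8 members, all lower in mutant cultures, a share near that of all genes tested that fell (20.7% fell and 19.7% rose, 40.3% in all). In polyribosomal RNA the median was 0.28 (range -0.23 to 0.78), against 0.01 over 14412 genes. There 8 members rose and 0 fell, where 23.6% of all genes passed (11.7% rose and 11.9% fell).

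Polyribosomal RNA here is that of the heavy 3 mL of the gradient alone, and mRNAs in its lighter part are not counted. Translational efficiency, the polyribosomal level relative to the total level of the same culture, was tested as the interaction of genotype and fraction over 16 libraries. Its median log2 change over the 37 genes was 0.49 (range -0.16 to 0.90), against 0.01 over 14333 genes, and 36 of 37 changes were above 0, all but that of Ndufs1. Of the 37, 26 rose and 0 fell, where 13% of all genes passed (5.07% rose and 7.89% fell). Leaving out Ndufa4 gave 25 of 36. At an unadjusted p under 0.05 stood 14 members in total RNA (all lower, against 50.5% of all genes in either direction), 18 in polyribosomal RNA (all higher, against 38.8%) and 30 for efficiency (all higher, against 29.6%). The 3 comparisons share libraries, so they are not independent of each other.

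**Figure D1:**
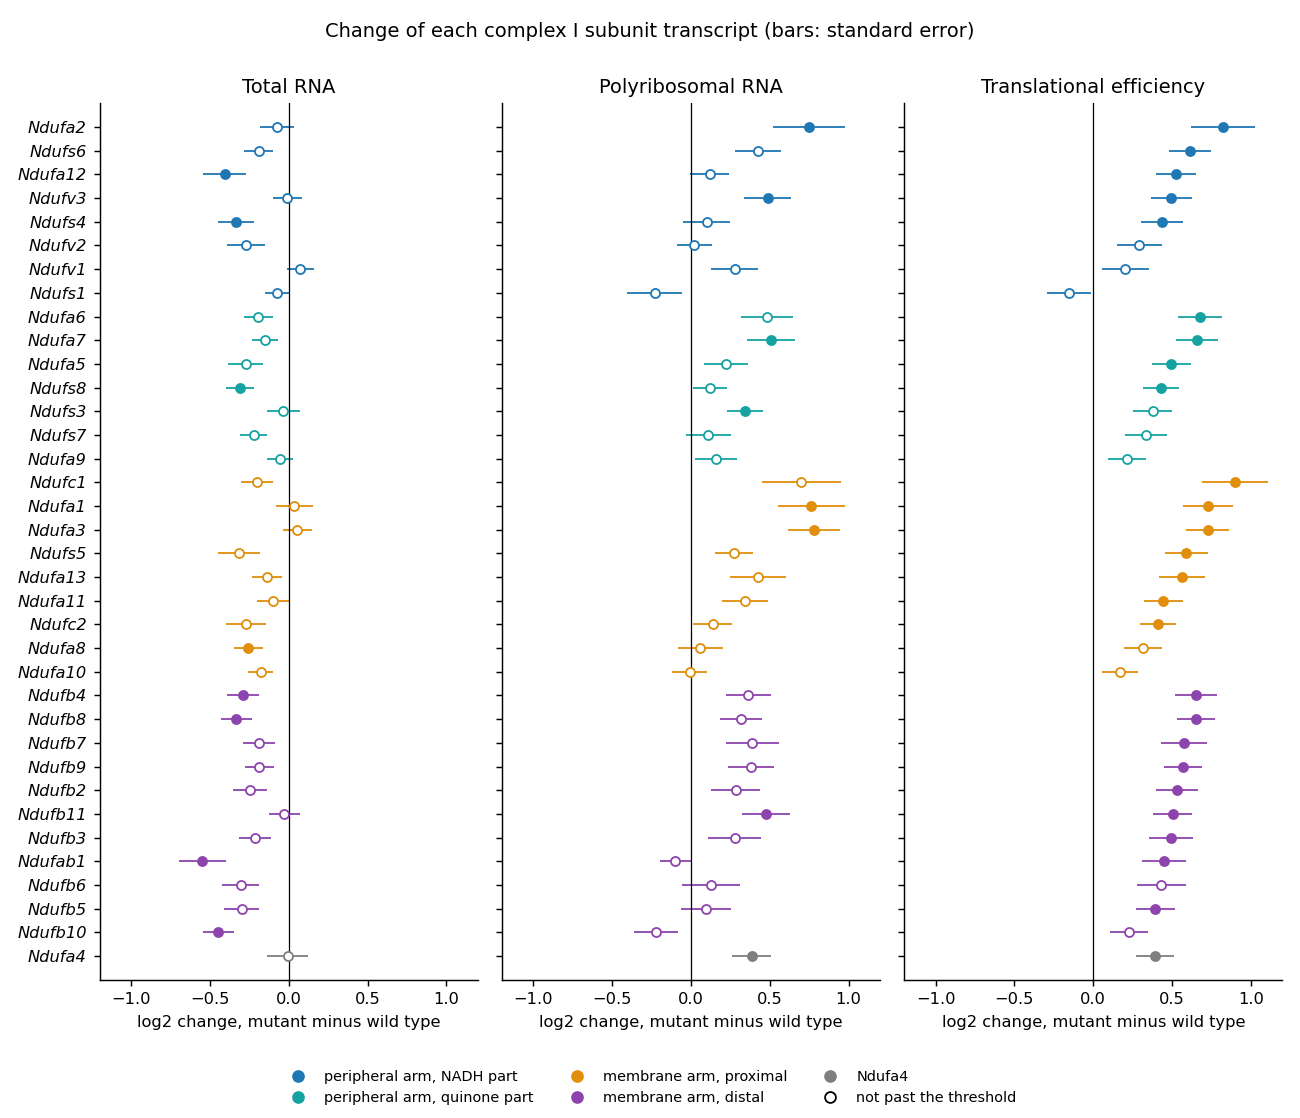
The log2 change (x axis, mutant minus wild type) of 36 of the 37 complex I subunit genes in total RNA, polyribosomal RNA and translational efficiency. Points are fitted changes with their standard error over 4 cultures per genotype, colours are the place in the complex, and filled points passed an adjusted p of 0.05 (8, 8 and 26 genes).

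The efficiency calls depended on how the spread was modelled, while the direction did not. No gene of any kind, complex I or other, passed without the variance trend and robust moderation, where the smallest adjusted p was 0.05004 by limma and 30 members had an unadjusted p under 0.05 (27.8% of all genes did). Likewise no member passed after adding the Y-linked level as covariate (smallest adjusted p among members 0.0725, 27 at an unadjusted p under 0.05 against 15.4% of all genes), without mutant cultures 1 and 3 (0.0998, 24 members against 22.8%) and without the culture block (0.174, 26 members against 15.5%). Members did pass without mutant cultures 2 and 4 (smallest limma adjusted p 0.0119, 35 at an unadjusted p under 0.05 against 29.9% of all genes). The member median stayed between 0.38 and 0.60 across all settings tried. Leaving out 1 culture moved the count of rising members to 9 (mutant culture 1), 16 (wild-type culture 2) or 14 (wild-type culture 3), and to between 19 and 28 for the other 5 cultures.

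Counts in the single fractions also changed with most of the single cultures left out. The 8 members lower in total RNA became 2 without mutant culture 1, 4 without mutant culture 2, 3 without mutant culture 3 and 17 without mutant culture 4. They became 12 without wild-type culture 1, 1 without wild-type culture 2, 2 without wild-type culture 3 and 3 without wild-type culture 4. The 8 members higher in polyribosomal RNA became 1 without mutant culture 1, 2 without mutant culture 3, 4 without mutant culture 4, and 2 without wild-type culture 1, 2 or 3. Without mutant culture 2 all of these 8 were kept, and without wild-type culture 4 all but Ndufs3 and Ndufa4. Adding the Y-linked level as covariate, 0 members passed in either fraction (10 in total RNA against 34.6% of all genes, and 11 in polyribosomal RNA against 24.0%, at an unadjusted p under 0.05). Without mutant cultures 1 and 3, 0 passed in total RNA (4 at an unadjusted p under 0.05, against 33.2% of all genes) and 1 in polyribosomal RNA (5, against 30.4%). Scaling by library size alone, which put the median of all genes at 0.11 in total and 0.13 in polyribosomal RNA, gave 2 lower members in total RNA and 18 higher ones in polyribosomal RNA.

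Ndufb10 was the only member that stayed past the threshold in total RNA when any single culture was left out, and Ndufa3 was the only such member in polyribosomal RNA. For efficiency 9 members did so, namely Ndufs6, Ndufa6, Ndufa7, Ndufa1, Ndufa3, Ndufs5, Ndufb4, Ndufb8 and Ndufb9.

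The NADH part of the peripheral arm is described first, with values of cultures 1 to 4 in order. Of its 8 genes, 2 fell in total RNA, 2 rose in polyribosomal RNA and 5 rose in efficiency. Their median efficiency change was 0.47. The shares of all genes were 20.7% lower in total RNA, 11.7% higher in polyribosomal RNA and 5.07% higher in efficiency. Differences between the parts of the complex were not tested. Ndufv1, the core subunit that binds NADH and flavin, had 13621, 12430, 13241 and 15195 normalized reads of total RNA in mutant cultures and 13780, 12714, 11937 and 13340 in wild-type cultures. Its polyribosomal values were 17027, 13108, 15748 and 15865 normalized reads in mutant cultures and 9646, 13697, 13393 and 14639 in wild-type cultures. The genotypes overlapped in both fractions, and no change passed the threshold (log2 change 0.20 ± 0.15 SE, limma adjusted p = 0.37 for efficiency).

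Ndufv2, the core partner of Ndufv1 with an iron-sulfur cluster, had 14773, 14812, 11673 and 14746 normalized reads of total RNA in mutant cultures and 13713, 18561, 19033 and 16475 in wild-type cultures. Polyribosomal Ndufv2 stood at 24531, 22346, 24603 and 28630 normalized reads in mutant cultures and 25584, 24309, 24003 and 24413 in wild-type cultures. Mutant culture 3 was the low one in total RNA, the genotypes overlapped in both fractions, and efficiency did not pass (log2 change 0.29 ± 0.14 SE, limma adjusted p = 0.183). Ndufs1, the largest core subunit, which holds several iron-sulfur clusters, had 9021, 9289, 8508 and 10066 normalized reads of total RNA in mutant cultures and 9290.3, 9699, 9747 and 10064 in wild-type cultures. Polyribosomal Ndufs1 stood at 4287, 4386.5, 3258 and 6389.9 normalized reads in mutant cultures and 4864, 5342.5, 5236 and 5452 in wild-type cultures. Its polyribosomal values were lower in 3 of 4 mutant cultures than in every wild-type culture and highest in mutant culture 4, so the genotypes overlapped. It was the only member with a negative efficiency change (log2 change -0.16 ± 0.14 SE, limma adjusted p = 0.475).

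The accessory genes of this part moved more. Ndufa2, a small subunit with a thioredoxin-like fold, had 14043, 8745.5, 10140 and 11452 normalized reads of polyribosomal RNA in mutant cultures and 3936, 7472, 6832 and 8886 in wild-type cultures. Mutant culture 2 lay just below wild-type culture 4, so the groups overlapped there, and the level rose (log2 change 0.75 ± 0.23 SE, limma adjusted p = 0.0353). The ratio of polyribosomal to total normalized reads of Ndufa2 was 1.33, 0.901, 0.913 and 0.858 in mutant cultures and 0.349, 0.598, 0.642 and 0.716 in wild-type cultures, without overlap (log2 change 0.82 ± 0.20 SE, limma adjusted p = 0.0173).

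Ndufs6, a zinc-binding subunit, had 11870, 8576, 8616 and 9674 normalized reads of polyribosomal RNA in mutant cultures and 5859, 7928.5, 7033 and 8013 in wild-type cultures. All mutant cultures lay above all wild-type ones, but the polyribosomal change missed the threshold (log2 change 0.42 ± 0.15 SE, limma adjusted p = 0.0525). Efficiency of Ndufs6 rose, with ratios of 1.90, 1.39, 1.54 and 1.31 in mutant cultures and 0.867, 1.06, 0.988 and 1.07 in wild-type cultures (log2 change 0.61 ± 0.13 SE, limma adjusted p = 0.0105). Ndufv3, a subunit at the NADH-binding tip, had 13751, 9850.3, 12161 and 11619 normalized reads of polyribosomal RNA in mutant cultures and 6638, 9183, 8301 and 9801 in wild-type cultures, with every mutant culture above every wild-type one (log2 change 0.49 ± 0.15 SE, limma adjusted p = 0.0346).

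Ndufa12, which takes the place of the assembly factor Ndufaf2 late in assembly, fell in total RNA, with 13191, 13195, 11116 and 15508 normalized reads in mutant cultures and 13524, 19021, 19324 and 18657 in wild-type cultures (log2 change -0.41 ± 0.14 SE, limma adjusted p = 0.0372). Wild-type culture 1 lay among the mutant cultures, and the other wild-type cultures lay above all mutant ones. Its ratios were 1.96, 1.56, 1.85 and 1.59 in mutant cultures and 1.41, 1.16, 1.04 and 1.23 in wild-type cultures, and efficiency rose (log2 change 0.52 ± 0.13 SE, limma adjusted p = 0.0146). Ndufs4, whose loss causes a Leigh-like encephalopathy in mice, fell in total RNA, with 4654, 4671, 4185 and 5203 normalized reads in mutant cultures and 4803, 6835, 6055 and 6060.1 in wild-type cultures (log2 change -0.34 ± 0.11 SE, limma adjusted p = 0.0386). Wild-type culture 1 again lay within the mutant range, and the ratios of 1.23, 1.09, 1.27 and 1.40 in mutant cultures and 1.01, 0.828, 0.793 and 1.08 in wild-type cultures gave a rise in efficiency (log2 change 0.44 ± 0.13 SE, limma adjusted p = 0.0377).

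The quinone part of the peripheral arm is where electrons reach ubiquinone. Of its 8 genes, 1 fell in total RNA, 2 rose in polyribosomal RNA and 4 rose in efficiency. Their median efficiency change was 0.40. The shares of all genes were again 20.7%, 11.7% and 5.07%. Ndufs3, a core subunit of the quinone module, had 36955, 27972, 33878 and 35611 normalized reads of polyribosomal RNA in mutant cultures and 25020, 26676, 26100 and 27722 in wild-type cultures. All mutant cultures lay above all wild-type ones and the level rose (log2 change 0.34 ± 0.12 SE, limma adjusted p = 0.0492), the only core gene called there. Its ratios of 3.07, 2.59, 3.40 and 2.92 in mutant cultures and 2.59, 2.13, 2.09 and 2.41 in wild-type cultures overlapped by a narrow margin and efficiency just missed (log2 change 0.38 ± 0.12 SE, limma adjusted p = 0.0514). Ndufs7, which holds the last iron-sulfur cluster before ubiquinone, had 9379.6, 9303, 9569 and 11475 normalized reads of total RNA in mutant cultures and 11727, 11778, 10905 and 11827 in wild-type cultures. Polyribosomal Ndufs7 stood at 24219, 17695, 19820 and 23491 normalized reads in mutant cultures and 16970, 21791, 17490 and 22734 in wild-type cultures. Mutant culture 4 reached the wild-type range in total RNA, and no change of Ndufs7 passed (log2 change 0.33 ± 0.13 SE, limma adjusted p = 0.0997 for efficiency).

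Ndufs8, a ferredoxin-like core subunit, was the only core gene called in both total RNA and efficiency. It had 11770, 11669, 10699 and 13189 normalized reads of total RNA in mutant cultures and 13308, 15506, 15301 and 14502 in wild-type cultures, without overlap, and fell (log2 change -0.31 ± 0.09 SE, limma adjusted p = 0.0198). Polyribosomal Ndufs8 stood at 28050, 24135, 25859 and 29036 normalized reads in mutant cultures and 24927, 25059, 23513 and 24739 in wild-type cultures, which overlapped. The ratios of 2.38, 2.07, 2.42 and 2.2 in mutant cultures and 1.87, 1.62, 1.54 and 1.71 in wild-type cultures did not overlap, and efficiency rose (log2 change 0.43 ± 0.11 SE, limma adjusted p = 0.0217). Ndufs8 lost its total RNA call without mutant culture 1, wild-type culture 2 or wild-type culture 3.

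Ndufa6, a LYR-motif protein that anchors an acyl carrier protein, had 9802, 6589, 8552 and 8094 normalized reads of polyribosomal RNA in mutant cultures and 4412.5, 6729, 5809.5 and 6786 in wild-type cultures. Mutant culture 2 fell between wild-type cultures there. Its ratios were 1.49, 1.05, 1.26 and 1.06 in mutant cultures and 0.626, 0.765, 0.771 and 0.867 in wild-type cultures, all higher in mutant cultures (log2 change 0.68 ± 0.14 SE, limma adjusted p = 0.00887). Ndufa7 had 15440, 10401, 12783 and 11310 normalized reads of polyribosomal RNA in mutant cultures and 6977, 9398, 8759.9 and 9914 in wild-type cultures, above wild type in every mutant culture (log2 change 0.51 ± 0.15 SE, limma adjusted p = 0.0331), and its efficiency rose as well (log2 change 0.66 ± 0.13 SE, limma adjusted p = 0.00797). In contrast, Ndufa9, a subunit with a nucleotide-binding fold, did not pass in any comparison (log2 change 0.21 ± 0.12 SE, limma adjusted p = 0.234 for efficiency), whereas Ndufa5 rose in efficiency (log2 change 0.49 ± 0.12 SE, limma adjusted p = 0.0171).

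The proximal part of the membrane arm had the highest median efficiency change of the 4 parts, a difference that was not tested. Its transcripts also had the shortest median length, 545 bases. The distal, quinone and NADH parts had medians of 732, 878 and 1621.5 bases. Of the 9 proximal genes, 1 fell in total RNA, 2 rose in polyribosomal RNA and 7 rose in efficiency (median 0.56). The shares of all genes were again 20.7%, 11.7% and 5.07%. Ndufc1, a short single-span subunit, had 4917, 4839, 4854 and 6247 normalized reads of total RNA in mutant cultures and 5532.5, 6440.5, 5585 and 6328 in wild-type cultures. Polyribosomal Ndufc1 stood at 5320.3, 3475, 3959 and 4671 normalized reads in mutant cultures and 1494, 2955, 2881 and 3860.4 in wild-type cultures. Wild-type culture 1 was far below the others and wild-type culture 4 lay among the mutant cultures, and the polyribosomal change missed the threshold (log2 change 0.70 ± 0.25 SE, limma adjusted p = 0.0616). The ratios of Ndufc1 were 1.08, 0.718, 0.816 and 0.748 in mutant cultures and 0.270, 0.459, 0.516 and 0.610 in wild-type cultures, and its rise in efficiency was the largest of the 37 (log2 change 0.90 ± 0.21 SE, limma adjusted p = 0.0146, a ratio of 1.87). It was lost without mutant culture 1.

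Ndufa3, a small membrane subunit, had 8267, 8049, 7066 and 8957 normalized reads of total RNA in mutant cultures and 7114, 8413, 7939 and 7615 in wild-type cultures. Polyribosomal Ndufa3 stood at 7538, 5392.5, 5319 and 6112.5 normalized reads in mutant cultures and 2614, 3814, 3875 and 3937.5 in wild-type cultures. Total levels overlapped, while every mutant culture exceeded every wild-type culture on polyribosomes. Ndufa3 had the largest polyribosomal rise of the members (log2 change 0.78 ± 0.16 SE, limma adjusted p = 0.0082) and also rose in efficiency (log2 change 0.72 ± 0.14 SE, limma adjusted p = 0.00691). Ndufa1, a single-span subunit encoded on the X chromosome, had 3565, 2929, 3969 and 3748 normalized reads of total RNA in mutant cultures and 2952, 3902, 3339.9 and 3659.5 in wild-type cultures. Polyribosomal Ndufa1 stood at 3279, 2209.5, 2624 and 2649 normalized reads in mutant cultures and 979, 1741, 1785 and 1992 in wild-type cultures. Total levels again overlapped and polyribosomal levels did not (log2 change 0.76 ± 0.21 SE, limma adjusted p = 0.0237), and efficiency rose (log2 change 0.73 ± 0.16 SE, limma adjusted p = 0.0107). The polyribosomal call of Ndufa1 was lost without mutant culture 1.

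Ndufs5 and Ndufa8 are twin-cysteine proteins of the intermembrane space. Ndufs5 had ratios of 1.66, 1.48, 1.77 and 1.20 in mutant cultures and 1.12, 0.877, 0.984 and 1.05 in wild-type cultures, without overlap (log2 change 0.59 ± 0.14 SE, limma adjusted p = 0.0128). Ndufa8 fell in total RNA, with 9363, 9298, 8268 and 10802 normalized reads in mutant cultures and 10831, 11728, 10838 and 11502 in wild-type cultures, all mutant cultures below all wild-type ones (log2 change -0.26 ± 0.09 SE, limma adjusted p = 0.0444). Its efficiency did not pass (log2 change 0.32 ± 0.12 SE, limma adjusted p = 0.0984). Of the other 4 proximal genes, Ndufa13, Ndufa11 and Ndufc2 rose in efficiency by 0.41 to 0.56 on the log2 scale. Ndufa10, a kinase-like subunit, did not pass in any comparison (log2 change 0.17 ± 0.12 SE, limma adjusted p = 0.346 for efficiency), although its total RNA did not overlap between genotypes.

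The distal part of the membrane arm had 11 genes. Among them, 4 fell in total RNA, 1 rose in polyribosomal RNA and 9 rose in efficiency (median 0.50). The shares of all genes were again 20.7%, 11.7% and 5.07%. Every one of the 11 total RNA changes was below 0, with a median of -0.29. Ndufb10, a twin-cysteine protein needed for membrane-arm assembly, had 8923, 9356, 8179 and 11187 normalized reads of total RNA in mutant cultures and 11977, 13282, 12500 and 13238 in wild-type cultures. Polyribosomal Ndufb10 stood at 14052, 12608, 12123 and 15046 normalized reads in mutant cultures and 13214, 17509, 14012 and 18440 in wild-type cultures. It fell in total RNA without overlap (log2 change -0.45 ± 0.10 SE, limma adjusted p = 0.0081) and its mean was lower in both fractions, as for Ndufs1, Ndufa10 and Ndufab1. Efficiency of Ndufb10 did not pass (log2 change 0.22 ± 0.12 SE, limma adjusted p = 0.222). Ndufb10 lies on chromosome 17 (24722060 to 24724478, GRCm38), 89.4 kb from Tsc2 (24595816 to 24632630). Of the other members on that chromosome, Ndufv3, Ndufa7, Ndufa11 and Ndufv2 lie between 6887.5 and 41446 kb away and did not pass in total RNA. The part of this neighbourhood in the fall of Ndufb10 was not tested.

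Ndufab1, the mitochondrial acyl carrier protein, which also serves fatty acid synthesis, had 11576, 13259, 8673 and 12074 normalized reads of total RNA in mutant cultures and 13291, 17680, 19405 and 16099 in wild-type cultures. Polyribosomal Ndufab1 stood at 24695, 23238, 22119 and 23877 normalized reads in mutant cultures and 25221, 24141, 26006 and 25209 in wild-type cultures. Its fall in total RNA was the largest of the members (log2 change -0.55 ± 0.15 SE, limma adjusted p = 0.0169), with the highest mutant value just under the lowest wild-type one, and was lost without wild-type culture 2. Polyribosomal levels overlapped, and efficiency rose (log2 change 0.45 ± 0.14 SE, limma adjusted p = 0.0456), a call that survived the loss of only 2 of the 8 cultures. Ndufb8, a single-span subunit often used as a marker of assembled complex I, had 14029, 13464, 12874 and 16405 normalized reads of total RNA in mutant cultures and 15842, 19344, 18185 and 18049 in wild-type cultures. Polyribosomal Ndufb8 stood at 24997, 18736, 18546 and 21049 normalized reads in mutant cultures and 14009, 18046, 16639 and 18059 in wild-type cultures. Total RNA fell (log2 change -0.33 ± 0.10 SE, limma adjusted p = 0.0227) while every mutant polyribosomal value lay above the wild-type range, and Ndufb8 had the smallest p of all members for efficiency (log2 change 0.65 ± 0.12 SE, limma adjusted p = 0.00658).

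**Figure D2:**
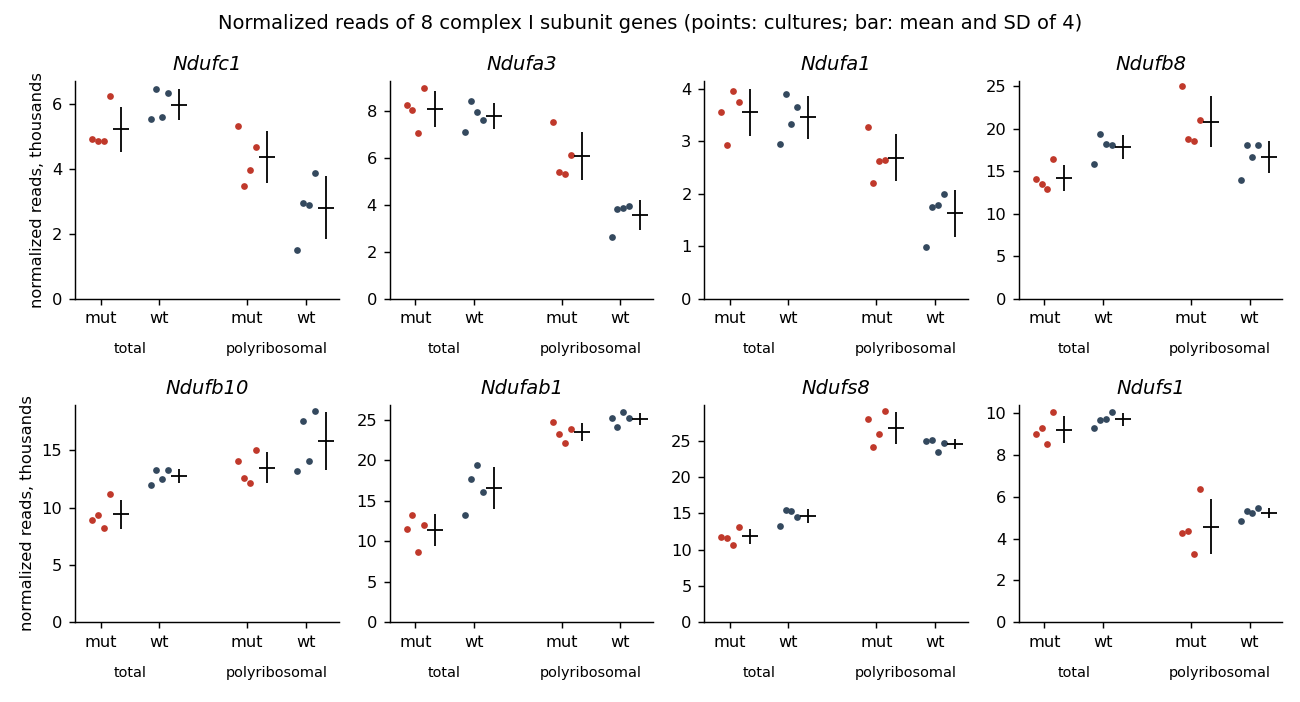
Normalized reads divided by 1000 (y axis, from 0) of 8 genes in total and polyribosomal RNA, 1 point per culture in the order 1 to 4, with the mean and SD of 4 cultures as a bar. The genes were picked after their values were seen. For Ndufa3 and Ndufa1 the mutant and wild-type points separated on polyribosomes and overlapped in total RNA, for Ndufb10 and Ndufab1 the reverse.

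Ndufb4 had 5771, 5719, 5072 and 6486.5 normalized reads of total RNA in mutant cultures and 6236, 7821, 7347 and 6792 in wild-type cultures, and fell there (log2 change -0.29 ± 0.10 SE, limma adjusted p = 0.0403) although wild-type culture 1 lay in the mutant range. Its ratios were 1.11, 0.901, 1.14 and 0.970 in mutant cultures and 0.587, 0.598, 0.632 and 0.814 in wild-type cultures, without overlap (log2 change 0.65 ± 0.13 SE, limma adjusted p = 0.00817). Ndufb9, another LYR-motif protein, had ratios of 1.30, 1.06, 1.10 and 1.09 in mutant cultures and 0.674, 0.798, 0.761 and 0.832 in wild-type cultures, also without overlap (log2 change 0.57 ± 0.12 SE, limma adjusted p = 0.00926). Ndufb11, the second member on the X chromosome, had 14372, 10078, 11632 and 13261 normalized reads of polyribosomal RNA in mutant cultures and 6981, 10106, 8420.5 and 10065 in wild-type cultures, where mutant culture 2 lay just below wild-type culture 2 (log2 change 0.48 ± 0.15 SE, limma adjusted p = 0.0429). Its ratios did not overlap (log2 change 0.50 ± 0.12 SE, limma adjusted p = 0.0162). Ndufb2, Ndufb3, Ndufb5 and Ndufb7 rose in efficiency by 0.39 to 0.58 on the log2 scale, and Ndufb6 missed (log2 change 0.43 ± 0.16 SE, limma adjusted p = 0.0775).

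Ndufa4, the subunit now counted with complex IV, rose on polyribosomes and in efficiency. Its polyribosomal values were 22369, 17662, 19168 and 21008 normalized reads in mutant cultures and 13296, 16184, 15298 and 16651 in wild-type cultures, without overlap (log2 change 0.38 ± 0.12 SE, limma adjusted p = 0.0389). Total Ndufa4 RNA overlapped between genotypes (log2 change -0.01 ± 0.13 SE, limma adjusted p = 0.969), and efficiency rose (log2 change 0.39 ± 0.12 SE, limma adjusted p = 0.0391).

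Across all members, the genotypes did not overlap for 5 genes in total RNA (all lower in mutant cultures, against 38.1% of all genes without overlap and 20.3% lower), 10 in polyribosomal RNA (all higher, against 27.9% and 13.3% higher) and 24 in the ratio (all higher, against 19% and 8.16% higher). The shift of the members as a group was seen in each mutant culture. With each gene set to its wild-type mean on the log2 scale, the median ratio of the 37 genes was 0.70, 0.33, 0.53 and 0.40 in mutant cultures 1 to 4, against -0.17, 0.00, -0.01 and 0.18 in wild-type cultures. All medians were higher in mutant than in wild-type cultures. Wild-type culture 4 was closest, with all 37 genes above the wild-type mean.

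Median total RNA on the same scale was -0.23, -0.27, -0.33 and 0.00 in mutant cultures and -0.14, 0.12, -0.01 and 0.04 in wild-type cultures. Mutant culture 4 thus lay within the wild-type range, and wild-type culture 1 was the lowest of its group. Median polyribosomal RNA was 0.42, 0.09, 0.16 and 0.38 in mutant cultures and -0.28, 0.12, -0.01 and 0.21 in wild-type cultures. These polyribosomal medians overlapped, with wild-type cultures 2 and 4 above mutant culture 2.

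**Figure D3:**
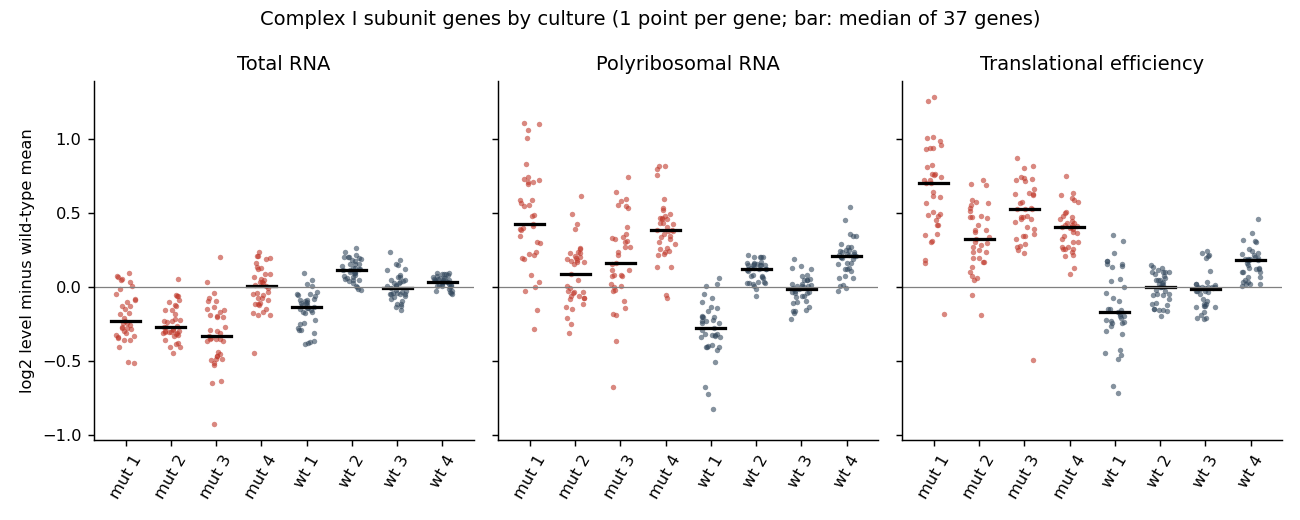
The log2 level of each complex I subunit gene minus its wild-type mean (y axis) in every culture (x axis), for total RNA, polyribosomal RNA and their ratio. Points are genes and bars the median of 37 genes, and only in the ratio do the 4 mutant medians (0.33 to 0.70) lie above the 4 wild-type medians (-0.17 to 0.18).

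Because the 2 tables were normalized separately, a ratio can be ranked among the genes of a culture but not read as an absolute polyribosomal share. The member at the middle stood at percentile 64.1 to 73.9 of the ratio among 14333 genes in mutant cultures and at percentile 49.4 to 59.9 in wild-type cultures. Among genes with a mean of at least 100 in both tables the mean of these medians was 66.6 in mutant and 50.0 in wild-type cultures. Complex I mRNAs thus ranked near the middle of all mRNAs in wild-type cultures and above it in mutant cultures. The members spread widely. Ndufa13, a membrane subunit also known as GRIM-19, ranked lowest in wild type, at a mean percentile of 23.9 in mutant and 11.9 in wild-type cultures, and Ndufs3 highest, at 97.5 and 91.0.

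Levels per length were compared in total RNA as normalized reads per kilobase of annotated transcript. Ndufa4 was the highest, at 35967 ± 3192 in mutant and 36486 ± 6298 in wild-type cultures (SD, n = 4 each). Ndufs4 was the lowest, at 2755 ± 245 in mutant and 3497 ± 495 in wild-type cultures, so the wild-type range over members was 10.4-fold. Many neighbours in the order, such as Ndufb9 at 16249 ± 1659 in mutant and 18458 ± 1299 in wild-type cultures and Ndufc1 at 16553 ± 2188 and 18957 ± 1522, lay within their spread. The length of each transcript is the annotated one and was not measured here.

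Core subunits had smaller efficiency changes than accessory ones, and they were longer. Of 7 core genes 1 rose in efficiency (median log2 change 0.29), and of 29 accessory genes without Ndufa4, 24 rose (median 0.52), a difference that was not tested. The core transcripts had a median length of 1623 bases and the accessory ones of 704 bases. Over the 37 members the efficiency change and transcript length had a Spearman correlation of -0.67 and a Pearson correlation with log2 length of -0.69. Over 13569 genes of known length the coefficients were -0.44 and -0.42. These describe genes that share libraries and are not independent replicates.

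Short mRNAs as a class shifted in the same direction. Genes of known length were split into 5 bins of nearly equal size. In the shortest bin (132 to 1725 bases), which held 34 of the 37 members, the median efficiency change was 0.26, and 17.5% of genes rose and 0.699% fell. In the longest bin (from 4916 bases), which held 0 members, the median was -0.19 and 20.4% of genes fell. Among members under 1000 bases, 20 of 24 rose (median 0.55), and among those of 1000 bases or more 6 of 13 (median 0.38), with the boundary set after the values were seen. Ndufs1 at 2661 bases and Ndufa10 at 2020 bases had the smallest efficiency changes. Ndufab1, with 3479 annotated bases, rose by 0.45.

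**Figure D4:**
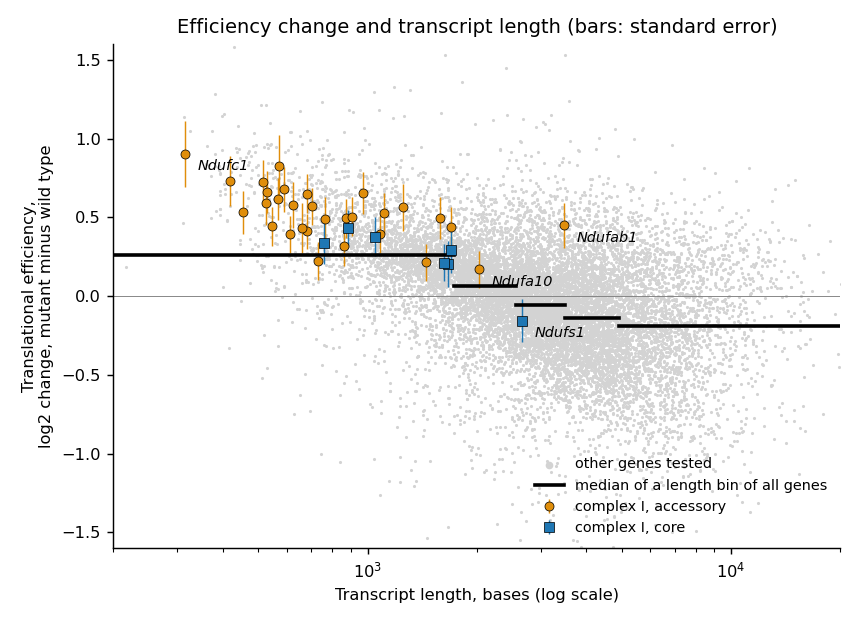
The log2 change in translational efficiency (y axis, mutant minus wild type) against annotated transcript length in bases (x axis, log scale) for 13569 genes, of which 47 lie outside the axes. Circles and squares are accessory and core complex I genes with their standard error, and black lines are the medians of 5 length bins of all genes, falling with length to -0.19 in the longest bin.

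Reads were not marked by strand, and 12 members overlap a protein-coding gene on the opposite strand, whose reads cannot be told apart there. Of these 12, which include Ndufa2, Ndufa3, Ndufs1, Ndufs3, Ndufs6 and Ndufb11, 8 rose in efficiency, 4 rose in polyribosomal RNA and 0 fell in total RNA. Of the other 25, 18 rose in efficiency, 4 rose in polyribosomal RNA and 8 fell in total RNA. Median efficiency changes were 0.47 and 0.49. In addition, Ndufb8, Ndufb9, Ndufb2 and Ndufa13 overlap a gene on their own strand, so part of their reads may belong to it.

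Some nuclear genes of mitochondrial proteins begin translation close to the cap at a TISU element (translation initiator of short 5′ untranslated regions), whose letters also match the site of the factor YY1. RefSeq windows from 250 bases before to 50 after the annotated start (GRCm38.p6) were matched for 33 of 37 members and searched for these letters, AAGATGGC, on both strands. They were found in 7 members (21.2%) and in 3.19% of 27025 genes. In all 7 the match lay on the sense strand within the first 50 bases. Its ATG was the annotated start codon, 26 to 42 bases from the RefSeq start. The GENCODE bounds of some of these genes reach further upstream, to 80249121 for Ndufs7 and 114388258 for Ndufs4. Which start is used in these cells was not tested. The narrower search of the first 50 bases on the sense strand, made after the windows were seen, found the letters in 2.23% of genes tested for efficiency. The 7 stretches are shown because they hold the start codon of members across all arms of the complex, with the letters AAGATGGC in capitals and 1-based GRCm38.p6 positions.
Ndufa3, chr7:3617384-3617413, plus strand: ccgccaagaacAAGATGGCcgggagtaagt
Ndufa9, chr6:126849097-126849126, minus strand: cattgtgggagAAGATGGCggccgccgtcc
Ndufb8, chr19:44555393-44555415, minus strand: cggagaaggtgAAGATGGCtgcc
Ndufc1, chr3:51408915-51408944, minus strand: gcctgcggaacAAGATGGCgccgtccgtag
Ndufs4, chr13:114388045-114388070, minus strand: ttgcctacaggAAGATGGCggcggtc
Ndufs6, chr13:73328433-73328460, minus strand: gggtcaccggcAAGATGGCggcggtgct
Ndufs7, chr10:80249462-80249491, plus strand: aggccgaggccAAGATGGCggcgctggcgg
The match is a description of letters and not of use. Of these 7 genes 5 rose in efficiency (0.21 to 0.90, median 0.61), and of the 26 matched members without the letters 19 rose (median 0.47). Ndufc1 and Ndufa3 rose by 0.90 and 0.72, while Ndufa9 and Ndufs7 with the same letters did not pass.

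The other letters searched gave these counts. GCATGCGC, the core of the NRF1 site, was in 3 members (9.09%, against 3.05% of all genes), and the longer NRF1 palindrome that contains it in 1 (3.03% against 1.07%). CCGGAAG, an ETS site, was in 4 (12.1% against 9.93%), TGACGTCA, the cyclic AMP response element, in 3 (9.09% against 2.03%), and CCAAT in 10 (30.3% against 41.1%). TATAAA was in 4 (12.1% against 15.7%), CACGTG, an E-box, in 2 (6.06% against 8.09%), and GGGGCGGGG, an Sp1 site, in 5 (15.2% against 12.9%). A C followed by 4 pyrimidines at the annotated start, the opening of terminal oligopyrimidine mRNAs that mTORC1 controls, was found for Ndufb11 alone (3.03% against 3.01%). These were searched on both strands, except for the last. The all-gene shares cover 27025 genes, expressed here or not, while all members were expressed. For AAGATGGC on the sense strand in the first 50 bases, the share was 1.04% of all genes and 2.23% of genes tested for efficiency. No such share was taken for the other letters.

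The regulators of nuclear respiratory genes moved in several directions. Of 10 listed, 6 fell and 1 rose in total RNA, and 4 fell and 1 rose in polyribosomal RNA, against 20.7% lower and 19.7% higher of all genes in total RNA and 11.9% and 11.7% in polyribosomal RNA. Nrf1, the nuclear respiratory factor, had 3361, 3873, 3033 and 3589 normalized reads in mutant cultures and 4831, 4576, 4796 and 4120.3 in wild-type cultures and fell without overlap (log2 change -0.41 ± 0.09 SE, limma adjusted p = 0.00912). Tfam, the packaging and transcription factor of mitochondrial DNA, had 2119, 2649.9, 2031 and 2438 normalized reads in mutant cultures and 3094.5, 3537, 3629 and 3199 in wild-type cultures and also fell (log2 change -0.55 ± 0.10 SE, limma adjusted p = 0.00455). Ppargc1a, the coactivator PGC-1alpha, had 4100.1, 3196, 3941 and 3753 normalized reads in mutant cultures and 1649, 2449, 2277 and 2467 in wild-type cultures, higher in every mutant culture (log2 change 0.77 ± 0.14 SE, limma adjusted p = 0.00392). Its relative Ppargc1b had 247, 269, 196 and 187 normalized reads in mutant cultures and 453, 372, 447 and 347 in wild-type cultures, lower in every mutant culture (log2 change -0.85 ± 0.16 SE, limma adjusted p = 0.00466). In efficiency 2 of the 10 fell and 0 rose, where 7.89% of all genes fell and 5.07% rose. Pprc1 fell more, with ratios of 0.840, 0.984, 1.085 and 0.677 in mutant cultures and 1.54, 1.27, 1.66 and 1.21 in wild-type cultures (log2 change -0.67 ± 0.15 SE, limma adjusted p = 0.0119). Yy1 fell less, with ratios of 0.802, 0.872, 0.849 and 0.791 in mutant cultures and 1.08, 1.20, 1.03 and 1.04 in wild-type cultures (log2 change -0.39 ± 0.11 SE, limma adjusted p = 0.0304).

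Assembly factors of complex I, which build the complex and are not part of it, fell more in total RNA than the subunits they assemble, a difference given by medians and not tested. Of 18 tested, 13 fell and 0 rose (median -0.43), where 20.7% of all genes fell. Timmdc1, a membrane-arm assembly factor, had 1828, 2061.5, 1685 and 2224 normalized reads in mutant cultures and 2994.5, 2957, 3043 and 3069.9 in wild-type cultures, with no overlap (log2 change -0.64 ± 0.10 SE, limma adjusted p = 0.00278). Ndufaf6 had 805, 1089, 744 and 1033.5 normalized reads in mutant cultures and 1576, 1743, 1730.5 and 1417 in wild-type cultures, lower in every mutant culture as well (log2 change -0.83 ± 0.14 SE, limma adjusted p = 0.0033). On polyribosomes 2 of the 18 fell, Ndufaf6 and Timmdc1, and 0 rose (median -0.22). That share is near the 11.9% of all genes that fell there. In efficiency 4 rose, Dmac1, Ndufaf8, Ndufaf5 and Ndufaf6 (median 0.23), where 5.07% of all genes rose.

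Subunits of the other respiratory complexes followed the complex I pattern in the medians. Of 36 subunits of complexes III, IV and V, 5 fell in total RNA (median -0.18), 10 rose in polyribosomal RNA (median 0.24) and 20 rose in efficiency (median 0.46), against 20.7% of all genes lower in total RNA, 11.7% higher in polyribosomal RNA and 5.07% higher in efficiency. Atp5j2 of the ATP synthase had ratios of 1.34, 0.915, 1.03 and 0.964 in mutant cultures and 0.488, 0.605, 0.621 and 0.725 in wild-type cultures (log2 change 0.80 ± 0.14 SE, limma adjusted p = 0.00613), and Cox7a2 of cytochrome oxidase ratios of 1.51, 1.20, 1.16 and 1.29 in mutant cultures and 0.864, 0.813, 0.776 and 0.864 in wild-type cultures (log2 change 0.63 ± 0.12 SE, limma adjusted p = 0.0064). Neither overlapped between genotypes. Of the 4 subunits of complex II, 1 rose in efficiency, Sdhb (log2 change 0.47 ± 0.11 SE, limma adjusted p = 0.0132), where 5.07% of all genes rose. The 75 mitochondrial ribosomal protein genes, which serve translation of the mitochondrially encoded subunits, differed in total RNA, where 68 fell and 0 rose (median -0.47). In polyribosomal RNA 6 fell and 2 rose (median -0.14, against 0.28 for complex I), and 52 of the 75 changes were below 0. Both shares lay below those of all genes there, of which 11.9% fell and 11.7% rose. In efficiency 27 of the 75 rose (median 0.36), where 5.07% of all genes rose.

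**Figure D5:**
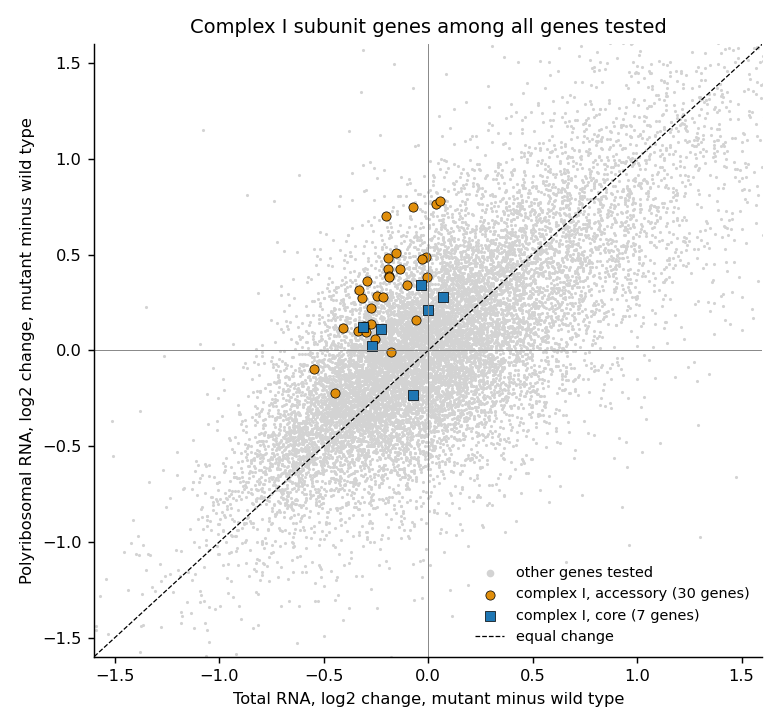
The log2 change (mutant minus wild type) in polyribosomal RNA (y axis) against total RNA (x axis) for 14333 genes, of which 437 lie outside the axes. Points above the dashed line of equal change gained on polyribosomes relative to total RNA, as did 36 of the 37 complex I subunit genes.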

How the data were processed

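Total and polyribosomal RNA of 4 Tsc2 mut/mut and 4 Tsc2 wt/wt NSC cultures was sequenced as paired ends after poly(A) selection, without strand information. The authors aligned reads with STAR to mm10, and what they deposited is a normalized signal: gene read counts scaled by DESeq2 normalization factors, in 1 table per fraction. For the read counter and its annotation, neither labels nor methods give a name. Low values lay within 0.1 of a whole multiple of 1 read for 79.4% to 95.6% of values per library, so whole reads were not recovered and no count model was used. Of 24972 rows, 26 with date-like names were left out.

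Values were tested as log2(value + 1) with limma 3.58.1 in R 4.3.3 (variance trend, robust moderation, Benjamini-Hochberg adjustment over all genes, mean value of at least 10, threshold 0.05). Changes are mutant minus wild type in log2(value + 1), so those of low genes are understated. Efficiency was the interaction of genotype and fraction with culture as a block, since total and polyribosomal libraries of 1 culture deviated together (r of 0.233 to 0.731). The fits were tested on simulated data.

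The members and gene lists were chosen with earlier results of these data known, and the motifs, the core and accessory split, the length boundary and the genes plotted by culture after values were seen. Cultures are described one by one for members past the threshold in any comparison (for efficiency the 12 with the smallest p), for core subunits, and for the largest rise and fall in each comparison. One core member enters the fits, counts and medians and is not reported here by itself. Other members named, and Yy1, Sdhb and the letters searched, are additions to that rule. Genes were placed with GENCODE M21 (GRCm38), and transcript length is the median over the best-supported basic coding transcripts of a gene (RefSeq-matched and APPRIS principal where present). That definition replaced a median over all coding transcripts, which gave implausible lengths for some members. Alternatives were the pseudocount, filter, scaling, moderation, blocks, a Y-linked covariate and leaving out cultures.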

Additional observations from a re-analysis of the deposited data

Results flagged for a closer look

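Within each group of 4 cultures, 148 sets of member values were examined for a culture far from the other 3, and 7 stood apart. Chance alone gives about 1 in 20 such groups, so this number is near what chance gives. In total RNA, Ndufv2 in mutant culture 3 was at 11673 normalized reads (others 14746 to 14812), Ndufs7 in mutant culture 4 at 11475 (others 9303 to 9569) and Ndufc1 in mutant culture 4 at 6247 (others 4839 to 4917). In wild-type total RNA, Ndufa12 in culture 1 was at 13524 (others 18657 to 19324), Ndufs7 in culture 3 at 10905 (others 11727 to 11827) and Ndufb6 in culture 3 at 9069 (others 10430 to 10527). In polyribosomal RNA, Ndufa3 in wild-type culture 1 was at 2614 (others 3814 to 3938). Without that culture, Ndufa3 still rose past the threshold in polyribosomal RNA.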

How the results depend on the processing

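Of the named members' changes past the threshold, none changed direction under the alternatives run. Leaving out 1 culture at a time kept 214 of 336 such values past the threshold, and the other alternatives 202 of 378. Members lower in total RNA numbered 8, and 1 to 17 without 1 culture, 5 with no filter on low values, 2 with library size alone, 4 with no trend and no robust moderation, 0 with the Y-linked covariate, 14 without mutant cultures 2 and 4, and 0 without mutant cultures 1 and 3. Members higher in polyribosomal RNA numbered 8, and 1 to 12 without 1 culture, 4 with no filter, 18 with library size alone, 2 with no trend and no robust moderation, 0 with the Y-linked covariate and 1 without mutant cultures 1 and 3. Members lower in polyribosomal RNA numbered 0, and 0 to 1 without 1 culture and 1 without mutant cultures 2 and 4. Members higher in efficiency numbered 26, and 9 to 28 without 1 culture. They numbered 0 with no trend and no robust moderation, with the Y-linked covariate, or without mutant cultures 1 and 3. The limma counts at an unadjusted p under 0.05 were then 30, 27 and 24, against 27.8%, 15.4% and 22.8% of all genes. The cause of these shifts was not tested.

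Same-numbered mutant and wild-type cultures are different cultures, whose deviations from the group means correlated at -0.13 to 0.101, so the numbers did not pair them. With the culture number as a replicate block, 3 members were lower in total RNA and 2 higher in polyribosomal RNA. With no replicate block, efficiency gave 0 members (26 at an unadjusted p under 0.05 by limma, against 15.5% of all genes). Library size alone moved the all-gene split for total RNA to 3838 higher and 2263 lower (2944 and 3091 as deposited), for polyribosomal RNA to 2579 and 927 (1690 and 1713), and for efficiency to 920 and 946 (727 and 1131). The members' median in total RNA was then -0.10, with 26 of 37 below 0. Depth did not limit these genes, whose lowest value was 979 normalized reads (Ndufa1, polyribosomal, wild-type culture 1), while 4 cultures per genotype limit the precision.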
